A study of Mus musculus with 2 samples.

Results

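Ddit3-positive layer 5 pyramidal tract (L5 PT) neurons were compared with Ddit3-negative L5 PT neurons in the cortex injured by concussion. Members were chosen by the deposited subclass label L5 PT CTX and a depth of at least 2300 unique molecular identifiers (UMIs) per nucleus, and were then split by Ddit3 itself. Each nucleus was thinned at random to 2300 UMIs, and it was called positive with at least 1 Ddit3 UMI left and negative with none. Of the 8171 nuclei in the deposited table, 2580 formed the neuron subset and 642 of these were L5 PT. A total of 93 L5 PT nuclei (84 male, 9 female) were shallower than 2300 UMIs and were left out. The 549 members were 179 positive nuclei (99 male, 80 female) and 370 negative nuclei (169 male, 201 female).

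The study profiled nuclei of cells that express Atf3, a transcription factor induced by neuronal injury, after a mild traumatic brain injury (mTBI) in mice. All animals had the genotype Atf3-CreER:+/wt and SUN-SfGFP:+/wt, were more than 7 weeks old, and received tamoxifen at 4 and 5 days post injury (dpi). CreER is driven by Atf3, so GFP marks the nuclear envelope of any cell type that expressed Atf3 while tamoxifen was present, and GFP-positive nuclei of the ipsilateral cortex were sorted at 7 dpi. There were 2 libraries, each a pool of 4 animals and named in their titles as male and female, so animals within a pool cannot be told apart and neither can sex and library. The sex field of the labels calls both libraries male, and the data go against that for the library titled female: in L5 PT nuclei Xist was at 6.003 CPM in male nuclei and 2020 CPM in female nuclei, and Y-linked genes at 280 and 0.581 CPM. The members held 1499138 UMIs in the male library (median 4680 per nucleus, range 2324–19879) and 3443299 in the female library (median 11105, range 2409–41610), and the libraries shared 1 called barcode. Every nucleus compared here thus came from an injured animal, and both sides of the split had passed the same sort.

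Ddit3 (ENSMUSG00000025408) encodes CHOP, a bZIP transcription factor. It is induced late in the integrated stress response, in which kinases such as PERK phosphorylate eIF2α, general translation falls, and ATF4 is translated and activates its targets. Accumulation of unfolded protein in the endoplasmic reticulum (ER) activates PERK together with IRE1 and ATF6, and prolonged induction of CHOP is linked to apoptosis through BCL2 family genes such as Bbc3. L5 PT neurons are the large neurons of layer 5 that project out of the cortex to subcortical targets and the spinal cord.

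The L5 PT label was checked against markers in all members. Bcl11b, a transcription factor of subcerebral projection neurons, was at 58.0 CPM (counts scaled to a common library total) in male and 42.7 in female L5 PT nuclei, against 12.8 and 15.0 in layer 2/3 intratelencephalic (L2/3 IT) nuclei. Vat1l was at 72.7 and 50.3 CPM, against 11.0 and 10.4. Cux2, a marker of upper layers, was at 10.0 and 5.23 CPM, against 500 and 464 in L2/3 IT nuclei. These markers separated the subclasses in both libraries. Other L5 PT markers were low, with Fezf2 at 3.34 and 5.81 CPM and Fam84b at 2.67 and 2.03, and Pou3f1 was no higher in L5 PT (10.0 and 7.55 CPM) than in L2/3 IT (11.6 and 14.2). The vesicular glutamate transporter Slc17a7 was also low, at 34.7 and 13.9 CPM, and the inhibitory marker Slc32a1 had no UMI in either library.

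Markers of other cells were also read in the members. Of 15 microglial markers, all had at least 1 UMI, and their summed level was 679 CPM in positive and 579 in negative nuclei of the male library and 971 and 964 in the female library. At least 2 UMIs of the list were found in 78.8% of positive and 74.6% of negative male nuclei and in 95% and 98.5% of female nuclei. Leaving these nuclei out kept 64 male and 7 female members, among which edgeR called 0 genes, with 25 at an unadjusted p under 0.05. The defining microglial genes Tmem119 (5.34 and 0.290 CPM) and P2ry12 (6.67 and 4.36 CPM) were near 0 in the members. Of 12 inhibitory markers, Slc32a1, Pvalb, Sst and Vip had no UMI, and the summed level was 41.6 and 32.3 CPM in male and 39.1 and 23.4 CPM in female nuclei. Here the most abundant was Erbb4, at no more than 22.7 CPM in any sum. The 9 oligodendrocyte markers summed to 90.7 and 128 CPM in male and 96.0 and 108 CPM in female nuclei, with Mbp the most abundant. The 8 astrocyte markers, led by Sox9, summed to 112 and 110 CPM and to 124 and 86.3 CPM. The 8 vascular markers, with Cldn5 at 0 and Pecam1 the most abundant, summed to 13.2 and 7.05 CPM and to 15.2 and 11.7 CPM.

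The share of positive nuclei was 36.9% in the male library (99 of 268, Clopper-Pearson 95% interval 31.1–43.0%) and 28.5% in the female library (80 of 281, 23.3–34.1%). These shares describe the split and are not a test. In microglia, thinned in the same way, 10.3% of 203 male nuclei and 6.89% of 1713 female nuclei had a Ddit3 UMI, at a median depth of 2678 and 3616 UMIs, against 4680 and 11105 UMIs in the L5 PT members. Without thinning, 62.3% and 68.7% of the members had a Ddit3 UMI.

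Most positive nuclei lay just inside the threshold. In the male library 67 of the 99 positive nuclei had exactly 1 thinned Ddit3 UMI and in the female library 62 of 80, and the highest counts were 13 and 4. Just outside the threshold, with no thinned UMI, were the 169 and 201 negative nuclei, many of which had Ddit3 UMIs among those that thinning removed. Such removed UMIs were found in 68 male and 113 female negative nuclei, and in 51 and 61 positive nuclei. The removed UMIs held Ddit3 at 360 CPM in positive and 200 CPM in negative male nuclei, and at 261 and 118 CPM in female nuclei. Negative therefore means a lower count and not an absence of Ddit3.

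Ddit3 was also found outside nuclei. In barcodes of under 100 UMIs, which hold mostly free RNA, Ddit3 was at 201 CPM for the male library and 124 CPM for the female one, above the 55.8 and 33.5 CPM of microglia and below the 254 and 153 CPM of all L5 PT members. If every UMI of a nucleus came from that pool, 2300 UMIs would carry 0.463 and 0.285 Ddit3 UMIs, against 0.590 and 0.374 thinned Ddit3 UMIs per nucleus in the male and female members. How much of the split comes from free RNA was not tested.

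The split moved with cluster and with depth. Of the 549 members, 492 were in cluster 4 of the deposited table (241 male, 251 female), where 36.1% of male and 26.3% of female nuclei were positive. A small cluster, 14, held 34 members (19 male, 15 female), and 12 of the 19 (63.2%, 38.4–83.7%) and 10 of the 15 (66.7%, 38.4–88.2%) were positive. Over the whole table, cluster 14 held 136 nuclei, 49 labelled L5 PT and 54 L2/3 IT. In the female library the share was 40.4% in the shallowest of 3 depth groups of near equal size, 23.7% in the middle group and 21.3% in the deepest. In the male library it was 39.3%, 42.7% and 28.9%. Positive nuclei were accordingly shallower in the female library, at a median of 9149.5 against 11827 UMIs, and close in the male library, at 4650 against 4764 UMIs.

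**Figure D1:**
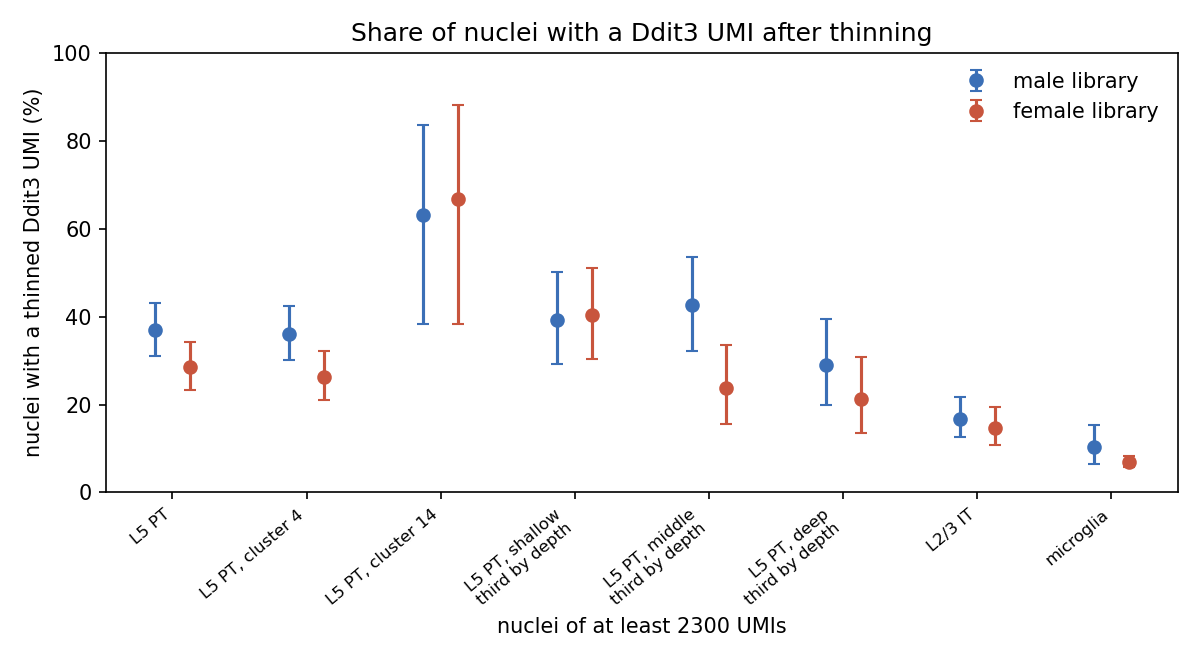
Share of nuclei with at least 1 Ddit3 UMI after thinning to 2300 UMIs (percent, vertical axis) in L5 PT members, their clusters and 3 depth groups, L2/3 IT nuclei and microglia. Points are libraries and bars are Clopper-Pearson 95% intervals; cluster 14 has the highest share in both libraries, on 19 and 15 nuclei.

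To ask which genes accompany Ddit3 within L5 PT neurons, UMIs were summed over the positive and over the negative nuclei of each library. The 4 sums held 519735 and 979403 UMIs in male nuclei and 838263 and 2605036 UMIs in female nuclei. With the library as a block and Ddit3 left out, 8046 genes were tested, and at an adjusted p under 0.05 (quasi-likelihood test of edgeR, Benjamini-Hochberg adjustment) 41 were higher (0.51% of those tested) and 65 lower (0.808%) in Ddit3-positive nuclei, 106 in all (1.32%). An unadjusted p under 0.05 was found for 758 of the 8046 genes, and these shares are the background for the gene lists below. The higher genes included Egr1, Jun and Jund, which encode transcription factors, the chaperone genes Hspa5 and Hspa8, and Npy, Cck, Tpt1, Tmsb4x and Rpl26. The lower genes included the glutamate receptor genes Gria1, Gria3, Grin2a, Grin2b and Grm7, the potassium channel subunit genes Kcnip4 and Kcnab1, Cdh18, and the L5 PT marker Ldb2.

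How far these calls hold differs by gene, and is given first. Of the 106 genes, 105 changed in the same direction in both libraries, with Pcdh15 the exception. The sizes often differed, and several rises were larger in female nuclei, among them Gm26870 (male 1.28, female 3.42), Tpt1 (1.16 and 2.44), Npy (0.91 and 2.18), Tmsb4x (0.82 and 1.66) and Jun (0.33 and 1.14). Which nuclei count as positive depends on the random thinning, and of the 106 genes only 13 were called with each of 6 seeds, while 26 were called with seed 1 alone. The balance of higher and lower genes moved with the seed as well. It was 41 and 27 with seed 4 and 42 and 42 with seed 6, but 39 and 70, 52 and 96, and 39 and 77 with seeds 2, 3 and 5. Without the 5% deepest nuclei it was 41 and 43. Without the 34 members of cluster 14, an analysis chosen after seeing the data, 6 genes were higher (0.0779% of 7701 tested) and 16 lower (0.208%), and 21 of these 22 were among the 106. In cluster 4 alone, 12 were higher (0.158% of 7574) and 33 lower (0.436%), 42 of these 45 shared with the 106. With the split made at 4000 UMIs per nucleus instead of 2300, edgeR called 0 genes and 494 had an unadjusted p under 0.05, and Egr1 was then at 0.62 ± 0.13 (adjusted p = 0.329) and Kcnip4 at -0.36 ± 0.08 (adjusted p = 0.372). DESeq2 called 2 genes, Gm28928 and Kcnip4, both lower, and edgeR without the library block called 0, with 302 at an unadjusted p under 0.05. With 4 sums, 1 residual degree of freedom remained, so the test rests on a spread pooled over genes. Among the named genes, Egr1, Kcnip4 and Cdh18 were called with each seed, in cluster 4 and without cluster 14.

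**Figure D2:**
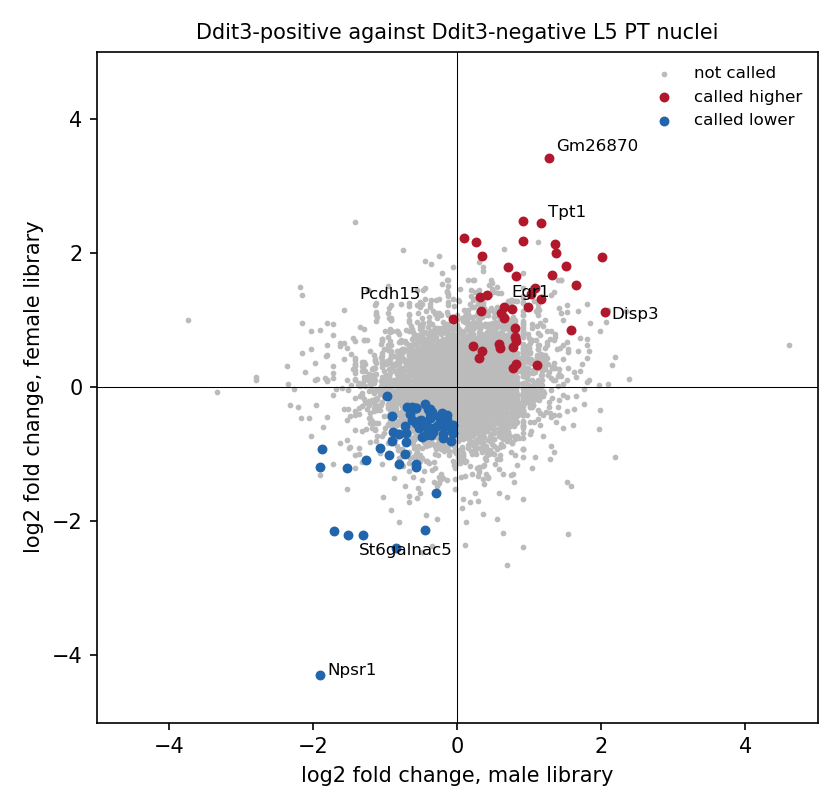
Log2 fold change of Ddit3-positive against Ddit3-negative L5 PT nuclei in the male (horizontal axis) and female (vertical axis) library, 1 point per tested gene. Of 106 called genes, coloured by direction, 105 lie in the quadrants of equal sign and Pcdh15 does not.

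Egr1 encodes a zinc finger transcription factor that neurons induce rapidly on activity or stress. It was at 263 CPM (TMM-scaled, as all levels of the 4 sums) in positive and 167 in negative nuclei of the male library, and at 313 and 137 in the female library. Both positive sums were above both negative sums, and Egr1 rose by 0.97 ± 0.14 on the log2 scale (SE; adjusted p = 2.25e-09). It stayed higher without cluster 14 (0.70 ± 0.15, adjusted p = 0.0355). Over nuclei with 0, 1 and at least 2 thinned Ddit3 UMIs, Egr1 was at 170, 271 and 257 CPM in male nuclei and 126, 296 and 294 CPM in female nuclei. The step thus lay between 0 and 1 UMI. In barcodes of under 100 UMIs it was at 129 and 101 CPM, below the negative nuclei. Egr1 was 1 of 4 tested activity genes (of 15 listed) and the only one called, against 0.51% higher over all genes tested. The median of the 4 was -0.21 (male -0.10, female -0.03), against 0.01 over all genes tested. The most abundant of them, Homer1, a scaffold of glutamate receptors, was at 253 and 299 CPM in male and 293 and 292 CPM in female nuclei and did not pass the test.

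Of 20 tested bZIP and AP-1 genes, Jun and Jund rose, against 0.51% of all genes tested. Both were in the shortest of 10 groups of genes by span, where 20 of 804 genes rose. A positive fold change was found for 10 of the 20 and a negative one for 10, and the median was -0.00049. Jun, the AP-1 subunit that acts below JNK, was at 123 CPM in positive and 97.8 in negative male nuclei and at 229 and 104 CPM in female nuclei (log2 fold change 0.85 ± 0.16, adjusted p = 6.37e-05). Jund, a related subunit, was at 90.7 and 36.3 CPM and at 50.5 and 15.9 CPM (1.49 ± 0.27, adjusted p = 1.72e-05). Both were high in cluster 14, where Jun was at 634 CPM in positive and 552 CPM in negative male nuclei and at 665 and 557 CPM in female nuclei, against 66.5 and 81.6 CPM and 162 and 91.6 CPM in cluster 4. Without cluster 14, neither passed the test, with Jun at 0.48 ± 0.20 and Jund at 1.04 ± 0.37. Atf3 itself, the gene that captured these cells, was at 58.6 and 57.4 CPM in male nuclei and 120 and 101 CPM in female nuclei (0.18 ± 0.19, adjusted p = 0.870). Bach2, the most abundant gene of the list and a transcriptional repressor, was at 325 and 275 CPM and at 258 and 259 CPM.

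The ER chaperone Hspa5 (BiP), a standard target of the unfolded protein response, was the only called gene of 18 tested in that pathway. It was at 110 CPM in positive and 73.6 in negative male nuclei and at 173 and 111 CPM in female nuclei. The groups were separated within each library, by 0.62 ± 0.17 (adjusted p = 0.0267). By number of Ddit3 UMIs, Hspa5 was at 74.5, 86.1 and 183 CPM in male nuclei and 102, 155 and 203 CPM in female nuclei, rising from 0 to 1 to at least 2 in both. Its call was lost without cluster 14 (0.35 ± 0.18, adjusted p = 0.716). The median of the 18 genes was 0.15 (male 0.29, female 0.10), and without cluster 14 it was 0.12. Among all genes tested, 0.51% rose. Sensors of ER stress did not pass the test: Atf6, the most abundant, was at -0.09 ± 0.14, Ern1, which encodes IRE1, at 0.30 ± 0.18, and Eif2ak3, which encodes PERK, at 0.19 ± 0.17 with opposite signs in the libraries (male 0.54, female -0.06).

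Promoters of both genes are shown because Ddit3 made the split and Hspa5 was the called gene of its pathway. They are from RefSeq (GRCm38.p6), 250 bases before to 50 after the start, 5′ to 3′, both on the plus strand, at chr10:127290543-127290842 for Ddit3 and chr2:34771840-34772139 for Hspa5. Capitals mark the AP-1 motif TGACTCA, on either strand, and the ER stress element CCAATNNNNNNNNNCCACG.
Ddit3: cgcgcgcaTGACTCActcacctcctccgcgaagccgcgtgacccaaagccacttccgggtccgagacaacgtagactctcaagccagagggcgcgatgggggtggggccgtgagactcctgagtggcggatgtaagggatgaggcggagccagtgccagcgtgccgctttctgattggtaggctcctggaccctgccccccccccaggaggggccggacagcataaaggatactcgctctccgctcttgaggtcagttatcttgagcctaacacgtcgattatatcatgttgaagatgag
Hspa5: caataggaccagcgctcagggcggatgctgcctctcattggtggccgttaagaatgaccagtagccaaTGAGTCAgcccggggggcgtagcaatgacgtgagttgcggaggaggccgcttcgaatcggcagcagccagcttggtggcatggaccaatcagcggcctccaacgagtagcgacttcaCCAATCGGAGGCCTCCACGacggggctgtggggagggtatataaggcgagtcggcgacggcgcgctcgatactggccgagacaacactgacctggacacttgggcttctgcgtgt
Each promoter held 1 AP-1 match, and Hspa5 alone of the pair held an exact match to the ER stress element. Only exact matches were scanned, so sites that differ from a motif by 1 or more bases were not counted. With 1 entry per gene, 5.20% of 27025 promoters held the AP-1 motif and 0.126% the ER stress element, and 3.22% and 0.175% of the 6269 tested genes that matched by symbol. Of the 41 higher genes, 30 matched and only Hspa5 held either motif. Of the 65 lower genes, 36 matched, and Esrrg, Fgf12 and Palld held the AP-1 motif. The motif TGATGCAAT (CARE) was scanned as well, and had 0 exact matches in both promoters and in the higher and lower genes. Sequence more than 250 bases before the start was not scanned, so a site further upstream would be missed. It was held by 0.204% of all promoters and 0.0638% of the tested genes that matched.

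Targets of ATF4 were not called. Of 40 listed genes, 25 were tested, 0 were called by edgeR's quasi-likelihood test and 0 by DESeq2, with 4 at an unadjusted p under 0.05, and the median was 0.11 (male 0.15, female 0.29). Over all genes tested, edgeR called 1.32%, and 758 of 8046 had an unadjusted p under 0.05. The 0 calls among 25 genes thus lay near the share over all genes. Sars, a seryl-tRNA synthetase and the most abundant of the list, was at 580 CPM in positive and 523 in negative male nuclei and at 287 and 273 CPM in female nuclei. Aldh1l2, a mitochondrial folate enzyme, had the smallest p of the list, at 68.1 and 29.2 CPM and at 45.5 and 33.0 CPM (0.78 ± 0.27, adjusted p = 0.152), and was called with seed 2 and without the 5% deepest nuclei. Of 17 tested genes of the core of the pathway, which include the eIF2α kinases, 0 were called by edgeR and 0 by DESeq2, with 0 at an unadjusted p under 0.05, and the median was 0.09. The smallest p among them was that of Ppp1cb, a phosphatase catalytic subunit, at 0.31 ± 0.21.

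Genes linked to CHOP and to apoptosis were not called. Of 6 tested genes known as CHOP targets, 0 were called by edgeR and 0 by DESeq2, with 2 at an unadjusted p under 0.05, and 5 had a positive and 1 a negative fold change, with a median of 0.38. Bbc3, which encodes the BH3-only protein PUMA, was at 96.4 CPM in positive and 65.5 in negative male nuclei and at 37.9 and 24.2 CPM in female nuclei. Positive exceeded negative nuclei in each library, yet the libraries differed by more than the groups did (0.59 ± 0.25, adjusted p = 0.331). Of 21 tested genes of the BCL2 and p53 families, 0 were called by edgeR and 0 by DESeq2, with 5 at an unadjusted p under 0.05, and 15 had a positive and 6 a negative fold change. Over all 8046 genes tested, 758 had an unadjusted p under 0.05, and 4158 had a positive and 3888 a negative fold change. The median of the 21 was 0.20, or 0.07 without cluster 14. Mdm2, the ubiquitin ligase of p53, was at 422 and 359 CPM and at 340 and 300 CPM (0.20 ± 0.12).

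Of 30 tested regeneration-associated genes, Jun and Npy rose, against 0.51% of all genes tested. Both were in the shortest of 10 groups of genes by span, where 20 of 804 genes rose. An unadjusted p under 0.05 was found for 10 of the 30, against 758 of all 8046. The median of the 30 was 0.14, or 0.01 without cluster 14. Npy, a neuropeptide, was at 77.5 CPM in positive and 41.3 in negative male nuclei and at 72.0 and 15.9 CPM in female nuclei (1.57 ± 0.26, adjusted p = 1.20e-06). In cluster 14 Npy was at 616 and 662 CPM in male and 373 and 205 CPM in female nuclei, against no more than 33.6 CPM in cluster 4, and its call was lost without cluster 14 (0.90 ± 0.39). Gap43, a growth cone protein and the most abundant of the list, was at 688 and 660 CPM and at 775 and 672 CPM (0.14 ± 0.10). Ecel1, an endopeptidase induced by neuronal damage, was at 365 and 292 CPM and at 463 and 446 CPM (0.16 ± 0.11), and the growth-associated genes Sox11 and Sprr1a were at 0.24 ± 0.11 and 0.20 ± 0.18. None of these 4 passed the test in either direction. A stress panel was also read, which is no independent evidence of direction since the study chose it on these samples. Of its 16 genes other than Ddit3, Jun alone was called, and the median was 0.17. The remaining members ran from -0.52 for Creb5 to 0.59 for Bbc3, with Ret, a neurotrophic receptor, at -0.39 ± 0.16, and Nmnat2, Rest, Stat3, Oxsr1 and Htt at 0.02, 0.05, 0.13, -0.14 and -0.19. Nmnat2, Rest and Stat3 had opposite signs in the libraries.

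Genes of the DLK, JNK and SARM1 pathways, which relay axon injury to the nucleus, gave 0 calls by edgeR and 0 by DESeq2 among 20 tested, with 3 at an unadjusted p under 0.05 and a median of -0.03. Over all 8046 genes tested, edgeR called 1.32%, DESeq2 called 2 genes, and 758 had an unadjusted p under 0.05. The 0 calls among 20 genes thus lay near the share over all genes. Map3k12, which encodes DLK, was at 34.0 and 44.3 CPM in male and 26.5 and 33.4 CPM in female nuclei (-0.35 ± 0.30). Sarm1, an NAD hydrolase of axon degeneration, was at 54.8 and 24.2 CPM and at 36.6 and 29.6 CPM (0.66 ± 0.29, adjusted p = 0.378). Mapk10, which encodes JNK3, had the smallest p of the list, at -0.31 ± 0.13. Mycbp2, a ubiquitin ligase that acts on DLK and NMNAT2 and the most abundant of the list, was at 0.0044 ± 0.10.

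Heat shock genes were led by Hspa8, a constitutive cytosolic HSP70. It was at 32.1 CPM in positive and 26.2 in negative male nuclei and at 64.4 and 25.4 CPM in female nuclei (1.0005 ± 0.28, adjusted p = 0.0321). Of 12 tested it was the only one called, against 0.51% higher over all genes tested, and the median was 0.22. Most of the Hspa8 difference was in the female library, and the call was lost without cluster 14 (0.88 ± 0.29). The most abundant, Hsp90aa1, was at 248 and 201 CPM and at 212 and 165 CPM (0.34 ± 0.14, adjusted p = 0.317).

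Tpt1 and Tmsb4x were among the 12 largest rises. Tpt1, a translationally controlled tumour protein, was at 22.7 and 10.1 CPM in male and 48.0 and 8.76 CPM in female nuclei (2.05 ± 0.37, adjusted p = 1.57e-05), and kept its call without cluster 14 (2.09 ± 0.44). It rested on 12, 10, 38 and 21 UMIs. Tmsb4x, an actin-binding thymosin, was at 88.9 and 50.4 CPM and at 124 and 39.2 CPM (1.34 ± 0.20). The ribosomal protein genes, a group chosen after its values were seen, had 36 of 82 members tested, 6 of which rose (among them Rpl13, Rpl26, Rpl38, Rpl41 and Rps24), with a median of 0.78 (male 0.37, female 1.19), against 0.51% higher over all genes tested and a median of 0.18 in the shortest of 10 groups of genes by span. The 36 were those above the filter on low counts, which can favour members that are high in positive nuclei. Rpl37a, for example, was at 26.5 and 8.06 CPM in male and 12.6 and 5.84 CPM in female nuclei. Summed over all 82 members, the level was 1543 CPM in positive and 1097 in negative male nuclei and 1282 and 635 CPM in female nuclei. Without cluster 14, 18 ribosomal protein genes were tested, 0 of them were called, and the median was 0.22. Tmsb4x also lost its call (0.88 ± 0.26).

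The lincRNA Gm26870 (ENSMUSG00000097312) had the largest rise, at 66.2 CPM in positive and 27.2 in negative male nuclei and at 90.9 and 8.34 CPM in female nuclei (2.46 ± 0.28, adjusted p = 1.32e-14). It was highest in cluster 14, at 597 and 524 CPM there in male nuclei and 537 and 234 CPM in female nuclei, and at no more than 36.4 CPM in cluster 4, and without cluster 14 it did not reach the filter on low counts. Cck, a neuropeptide of many cortical neurons, was at 37.8 and 13.1 CPM and at 27.8 and 7.93 CPM (1.67 ± 0.38), and was at 0.20 without cluster 14. Also among the 12 largest rises were Pfdn5 (1.81 ± 0.46; male 0.91, female 2.48), Rpl26 (1.76 ± 0.40), 2510039O18Rik (1.57 ± 0.41) and Disp3 (1.41 ± 0.38). Pfdn5 overlaps another annotated gene on the same strand (Myg1), so its reads may be shared with it. Without cluster 14, Pfdn5 and Rpl26 did not reach the filter, and 2510039O18Rik (1.45 ± 0.44) and Disp3 (1.46 ± 0.39) were not called, at fold changes close to those in all members.

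**Figure D3:**
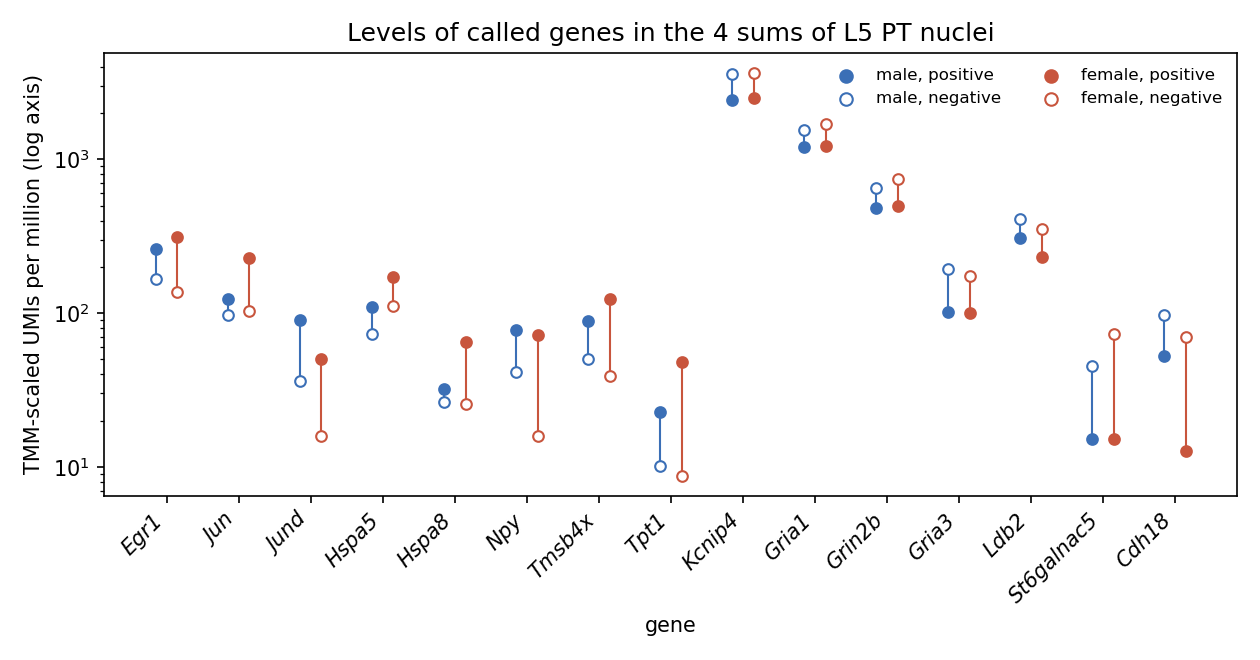
Level of 15 called genes in the 4 sums of L5 PT nuclei, in TMM-scaled CPM on a log axis. Filled points are Ddit3-positive and open points Ddit3-negative nuclei of the same library; each of the 15 genes moves the same way in both libraries.

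Glutamate receptor genes were among the lower genes. Of 28 tested glutamate and GABA receptor genes, 5 fell, 0 rose, and 24 had a negative fold change, with a median of -0.14 (male -0.13, female -0.14). Over all 8046 genes tested, 0.808% fell, 3888 had a negative fold change and the median was 0.01. All 5 called receptor genes were in the longest of 10 groups of genes by span, where 51 of 804 genes fell and the median was -0.09, and the part of gene span in the receptor list was not tested. The AMPA receptor subunit Gria1 was at 1202 CPM in positive and 1560 in negative male nuclei and at 1222 and 1690 CPM in female nuclei (-0.42 ± 0.08, adjusted p = 2.16e-04). Gria3, another AMPA receptor subunit, was at 102 and 194 CPM and at 99.7 and 175 CPM (-0.86 ± 0.16). The NMDA receptor subunit Grin2b was at 480 and 651 CPM and at 496 and 745 CPM (-0.52 ± 0.10). In each of these, both positive sums lay below both negative sums. Gria1, Gria3 and Grin2b were also called without cluster 14 and in cluster 4 alone, but none of them with seed 4, where Gria3 was at -0.02 and Gria1 at -0.23. The metabotropic receptor Grm7 (-0.33 ± 0.08) and the NMDA receptor subunit Grin2a (-0.34 ± 0.10) lost their calls without cluster 14, at fold changes close to those in all members (-0.29 ± 0.09 and -0.33 ± 0.11). In cluster 4 alone Grm7 was called (-0.39 ± 0.09, adjusted p = 0.00544) and Grin2a was not (-0.30 ± 0.11). Grin2a and Grm7 differed mostly among female nuclei (male -0.05 and -0.15, female -0.57 and -0.50).

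Kcnip4, an auxiliary subunit of A-type potassium channels, was the most abundant of 26 tested potassium and HCN channel genes. It was at 2426 CPM in positive and 3617 in negative male nuclei and at 2504 and 3642 CPM in female nuclei. The same drop was seen in both libraries, -0.58 and -0.54, and it was called (-0.56 ± 0.07, adjusted p = 2.36e-10) and remained so without cluster 14 (-0.53 ± 0.08). Kcnip4 was at 3665, 2545 and 2259 CPM over 0, 1 and at least 2 Ddit3 UMIs in male nuclei and at 3352, 2541 and 1519 CPM in female nuclei, lower at each step. In barcodes of under 100 UMIs it was at 5361 and 4387 CPM, above the nuclei. Kcnab1, a cytosolic beta subunit, was the other call of the list, at 17.0 and 37.3 CPM and at 49.2 and 93.4 CPM (-0.97 ± 0.25). Its call was lost without cluster 14, at a similar fold change (-0.88 ± 0.24), but not in cluster 4 alone (-1.42 ± 0.32, adjusted p = 0.00302), and with seed 6 it was at 0.08. The median of the 26 was -0.08 (male -0.12, female -0.17), and 0 of them rose. Among all genes tested, 0.808% fell and 0.51% rose. Kcnip4 and Kcnab1 were in the longest of 10 groups of genes by span, where 51 of 804 genes fell. Kcnq5, which the study names, was at 388 and 496 CPM and at 365 and 461 CPM (-0.35 ± 0.11, adjusted p = 0.104).

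Other channel genes were not called. Beside them, edgeR called 1.32% of all 8046 genes tested, DESeq2 called 2 genes, and 758 had an unadjusted p under 0.05. Of 6 tested sodium channel genes, 0 were called by edgeR and 0 by DESeq2, with 1 at an unadjusted p under 0.05, and the median was -0.25. That gene was Scn1a, a voltage-gated sodium channel, at 41.6 and 64.5 CPM in male and 40.4 and 73.4 CPM in female nuclei (-0.77 ± 0.24, adjusted p = 0.0731). Scn8a, the most abundant, was at -0.23 ± 0.14. Of 12 tested calcium channel genes, 0 were called by edgeR and 0 by DESeq2, with 4 at an unadjusted p under 0.05, and the median was -0.09. Cacna2d3, an auxiliary subunit and the most abundant, was at 807 and 914 CPM and at 739 and 927 CPM (-0.26 ± 0.09, adjusted p = 0.207).

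Some of the largest falls were in genes of low count. Npsr1, a neuropeptide receptor, had 2 and 17 UMIs in positive and negative male nuclei and 0 and 29 in female nuclei, so its fold change (-3.15) depends on the prior count. In cluster 4, where most members lay, it had 1 and 1 UMIs in male nuclei and 0 and 20 in female nuclei. The male drop thus lay outside cluster 4. St6galnac5, a sialyltransferase, was at 15.1 and 45.4 CPM in male and 15.2 and 72.6 CPM in female nuclei (-2.01 ± 0.32, adjusted p = 3.01e-07) and kept its call without cluster 14 (-2.13 ± 0.31), but was at 0.11 with the threshold set at 4000 UMIs. Cdh18, a cadherin, was at 52.9 and 96.8 CPM and at 12.6 and 69.7 CPM (-1.51 ± 0.25), a drop that was larger in the female library. The lincRNA Gm28928 (ENSMUSG00000100851) was at 181 and 319 CPM and at 290 and 645 CPM (-1.03 ± 0.12, adjusted p = 1.91e-13). It stayed lower without cluster 14 (-1.01 ± 0.12), yet with seed 4 its fold change was 0.34 and with the threshold set at 4000 UMIs 0.16, so its direction hangs on the draw. The other genes among the 12 largest falls were Ubash3b (-2.13 ± 0.50), Gm26883 (-1.97 ± 0.40), Palld (-1.49 ± 0.35), Reep2 (-1.46 ± 0.42), Brinp3 (-1.45 ± 0.36), Fras1 (-1.26 ± 0.30), Ccdc25 (-1.20 ± 0.34) and Cntnap5a (-1.05 ± 0.20). The drop was larger in the female library for Palld (male -0.45, female -2.13), Cntnap5a (-0.30 and -1.58) and Gm26883 (-1.31 and -2.20), and in the male library for Fras1 (-1.87 and -0.92). Of these 8, Gm26883 and Cntnap5a were also called without cluster 14. The other 6 were not called there, at -1.92 for Ubash3b, -1.37 for Palld, -1.44 for Reep2, -1.41 for Brinp3, -1.13 for Fras1 and -1.40 for Ccdc25, and in cluster 4 alone Palld, Fras1 and Ccdc25 were called (adjusted p = 0.0286, 0.0210 and 0.0285). The sign depended on the seed for some of the 8: Gm26883 was at 0.44 with seed 3 and Cntnap5a at 0.11 with seed 4. Palld (0.39 with seed 3), Brinp3 (0.22 with seed 4) and Fras1 (0.38 with seed 4) changed sign as well.

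Of 10 tested L5 PT identity genes, Ldb2 fell and 0 rose, against 0.808% lower over all genes tested. Among the 10, 4 had a positive and 6 a negative fold change, 2 had an unadjusted p under 0.05, and the median was -0.05. Ldb2, a LIM domain-binding cofactor, was at 310 CPM in positive and 410 in negative male nuclei and at 232 and 350 CPM in female nuclei (-0.50 ± 0.12, adjusted p = 0.00518). Its call was lost without cluster 14 (-0.44 ± 0.12, adjusted p = 0.146). Sox5, the most abundant, was at 752 and 726 CPM and at 641 and 740 CPM (-0.09 ± 0.10). Of 10 tested markers of intratelencephalic and layer 6 neurons, 0 were called by edgeR and 0 by DESeq2, with 1 at an unadjusted p under 0.05 (Mef2c, -0.41 ± 0.15), and the median was 0.02. Fam19a1, the most abundant of them, was at 0.05 ± 0.07.

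General neuronal and structural genes were not called either, where edgeR called 1.32% of all 8046 genes tested and 758 had an unadjusted p under 0.05. Of 8 tested pan-neuronal and excitatory genes, 0 were called by edgeR and 0 by DESeq2, with 3 at an unadjusted p under 0.05, and the median was -0.19. Syt1, a synaptic vesicle calcium sensor that overlaps Gm5136 on the same strand, had the smallest p, at -0.21 ± 0.09. Of 11 tested cytoskeletal genes, 0 were called by edgeR and 0 by DESeq2, with 1 at an unadjusted p under 0.05 (Mapt, which encodes tau, -0.26 ± 0.12), and the median was -0.0038 (male 0.06, female -0.10). Map2, a dendritic microtubule protein, was at 2660 and 2680 CPM in male and 3182 and 3146 CPM in female nuclei.

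Markers of other cells were read in the same fit, in which edgeR called 1.32% of all 8046 genes and 758 had an unadjusted p under 0.05. Of 7 tested microglial markers, 0 were called by edgeR and 0 by DESeq2, with 0 at an unadjusted p under 0.05, and the median was 0.05. Inpp5d, with the smallest p, was at -0.66 ± 0.38, with opposite signs in the libraries (male 0.17, female -1.71). Both tested inhibitory markers were uncalled by edgeR and DESeq2, with 1 at an unadjusted p under 0.05 (Erbb4, 0.89 ± 0.40) and a median of 0.61. The 4 tested astrocyte markers gave 0 calls by either tool, with 1 at an unadjusted p under 0.05 (Slc1a3, 1.04 ± 0.50, with opposite signs in the libraries) and a median of 0.41 that differed in sign by library (male -0.39, female 0.91), and the most abundant, Sox9, was at 0.30 ± 0.24. Both tested oligodendrocyte markers were uncalled by edgeR and DESeq2, with 0 at an unadjusted p under 0.05 and a median of -0.01 (male -0.20, female 0.15), and Mbp was at -0.36 ± 0.20. No vascular marker passed the filter on low counts. The part of other cells in the genes called was not tested.

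Signs of RNA quality were close on both sides. The median number of genes in the thinned nuclei was 1249 and 1248 in male and 1163.5 and 1146 in female nuclei, and mitochondrial transcripts made up 0.166% and 0.186% and 0.0946% and 0.0818% of UMIs. Of 11 tested mitochondrial transcripts, 0 were called by edgeR and 0 by DESeq2, with 0 at an unadjusted p under 0.05, and the median was -0.03 (male -0.23, female 0.10). The most abundant, mt-Co3, which overlaps mt-Atp6 on the same strand, was at -0.16 ± 0.14 and mt-Cytb at 0.27 ± 0.15. Of 7 abundant nuclear RNAs, 0 were called by edgeR and 0 by DESeq2, with 2 at an unadjusted p under 0.05, and the median was 0.14. Malat1 was at 0.04 ± 0.05 and Miat at 0.36 ± 0.13. The background for both lists was 1.32% of 8046 genes called by edgeR and 758 at an unadjusted p under 0.05.

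**Figure D4:**
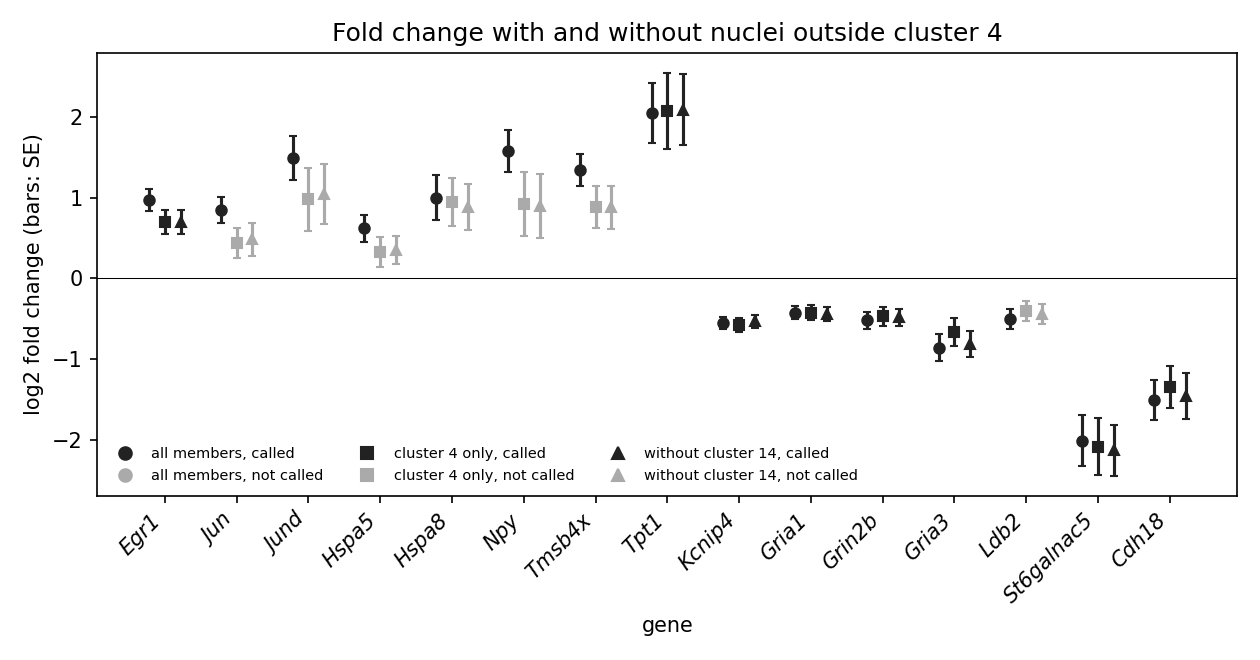
Log2 fold change (vertical axis, bars are SE) of 15 called genes in all members, in cluster 4 alone and without cluster 14, with dark points for an adjusted p under 0.05. Egr1, Kcnip4, Gria1, Grin2b, Gria3, St6galnac5, Cdh18 and Tpt1 stay called in all 3 sets, and the other seven do not.

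The called genes differed in length. The 41 higher genes had a median span of 10.4 kb from start to end of the annotated gene, and 30 of them were shorter than the median of all genes tested (42.1 kb). The 65 lower genes had a median span of 411 kb, and 63 of them were longer than that median. Of the 8046 genes tested, 8039 had a span. Genes were ranked by span into 10 groups, and in the shortest the median fold change was 0.18 (male 0.19, female 0.22), with 20 genes called higher and 1 lower. In the longest it was -0.09 (-0.08 and -0.10), with 5 higher and 51 lower. The order by span was thus present in both libraries, and it was smaller without cluster 14, at 0.11 and -0.08. The called list members Jun, Jund, Egr1, Hspa5, Hspa8 and Npy were in the shortest group, and Kcnip4, Kcnab1 and Ldb2 in the longest. The part of gene span in those lists was not tested. Barcodes of under 100 UMIs were set beside the order by span. Their median log2 level over negative nuclei was 0.47 (male) and 0.53 (female) for the higher genes, -0.19 and -0.45 for the lower genes, and 0.25 and 0.17 for all genes. The share of genes above 0 on this scale was 61.0% in each library for the higher genes, close to 62.0% (male) and 58.2% (female) for all genes. For the lower genes it was 41.5% and 35.4%. Among the higher genes, Cck was at 2.01 and 1.46, while Jun was below 0, at -0.89 and -0.92. The part of free RNA in the folds was not tested.

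**Figure D5:**
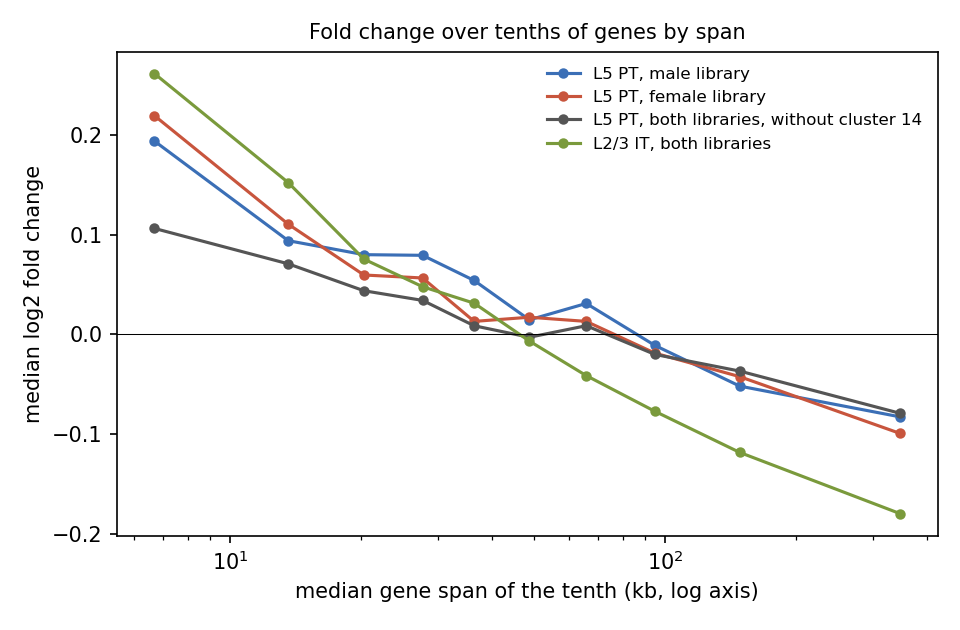
Median log2 fold change (vertical axis) in 10 groups of the tested genes by span (horizontal axis, kb, log scale), for each L5 PT library, for L5 PT without cluster 14 and for L2/3 IT. In each line the shortest group lies above 0 and the longest below 0.

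Levels were also followed over nuclei with 0, 1 and at least 2 thinned Ddit3 UMIs, as plain CPM and with no test. Of 14 named genes that rose, 7 were higher at each step in both libraries, and of 20 that fell, 10 were lower at each step. Of 46 named genes that were not called, 9 were higher and 8 lower at each step. Jun was at 99.1, 115 and 154 CPM in male and 95.6, 204 and 273 CPM in female nuclei. Gria1 was at 1581, 1383 and 778 CPM and at 1555, 1191 and 979.9 CPM, and Gria3 at 196, 115 and 73.4 CPM and at 161, 101 and 63.0 CPM. Both receptors were thus lowest in the nuclei with most Ddit3. The nuclei with 0 UMIs against the rest are the groups of the split itself, so only the step from 1 to at least 2 adds to it.

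L2/3 IT neurons, the most numerous other subclass here, were split in the same way to ask whether these differences are particular to L5 PT neurons. They join the deposited CTX-1 and CTX-2 labels of L2/3 IT. Of 286 male and 271 female L2/3 IT nuclei, 16.8% (12.6–21.6%) and 14.8% (10.8–19.6%) were positive, at a median depth of 4805.5 and 7494 UMIs. In a fit of all 8 sums, 30 genes were higher (0.33% of 9087) and 45 lower (0.495%) in Ddit3-positive L2/3 IT nuclei, and in the same fit 13 were higher (0.143%) and 20 lower (0.22%) in L5 PT nuclei. Of the 33 L5 PT and 75 L2/3 IT genes, 11 were shared (33.3% and 14.7%), all in the same direction, among them Egr1, Jun, Npy, Tmsb4x and Kcnip4. In this fit Hspa5 was called in L2/3 IT nuclei (1.20 ± 0.20, adjusted p = 4.44e-04) and not in L5 PT nuclei (0.61 ± 0.18, adjusted p = 0.184). Without cluster 14, 1 gene was called in L2/3 IT nuclei (Etl4, lower, named after its values were seen).

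The difference between the subclasses passed the test for 3 genes (0.033% of 9087), at an adjusted p of 0.0181 each (quasi-likelihood test of edgeR, Benjamini-Hochberg adjustment), with 513 at an unadjusted p under 0.05. Pcdh15, a protocadherin, was at 92.6 CPM in positive and 96.8 in negative male L5 PT nuclei and at 277 and 137 CPM in female nuclei, against 127 and 287 CPM and 245 and 336 CPM in L2/3 IT nuclei. The difference of the fold changes was 1.40 ± 0.27. Mgat4c, a glycosyltransferase, was at 106 and 62.5 CPM and at 140 and 62.6 CPM in L5 PT nuclei, and at 28.7 and 77.9 CPM and 85.1 and 116 CPM in L2/3 IT nuclei (1.75 ± 0.34). Ubash3b rested on few UMIs, 3 and 21 in male and 4 and 60 in female L5 PT nuclei (-3.15 ± 0.62). Pcdh15 and Mgat4c were named after their values were seen. DESeq2 called 0 such genes, with 60 at an unadjusted p under 0.05, and without cluster 14 edgeR called 0, with 404. For genes such as Egr1, Jun, Hspa5 and Kcnip4 the difference did not pass the test.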

How the data were processed

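The deposited counts are UMIs per gene and nucleus, which the authors made with Cell Ranger on a mouse (mm10) pre-mRNA reference. Cluster numbers and subclass labels are the authors' own, the clusters from Seurat's graph clustering and the labels from mapping nuclei to a motor cortex reference. No doublet caller was run here; leaving out the 5% deepest nuclei was an alternative. Nuclei were thinned without replacement (seed 1), and all UMIs were then summed by library and Ddit3 status. The sums were tested with edgeR 4.0.16 in R 4.3.3 (TMM factors, filterByExpr, quasi-likelihood test, Benjamini-Hochberg adjustment, threshold 0.05), with the library as a block because both sums of a library come from the same animals. This followed tests on simulated data, whose results are not given here. Levels are TMM-scaled CPM for the 4 sums and plain CPM for clusters, L5 PT and L2/3 IT markers, low barcodes and steps of Ddit3. A fold change within 1 library adds 0.5 UMI and has no test. DESeq2 1.42.0 was an alternative. Intervals are 95% Clopper-Pearson and cover counting error only. Gene spans are from GENCODE vM21. Named genes were the 12 largest called changes in each direction, the genes of the study's stress panel with 5 others it names, and, for each gene list, called members, the most abundant and, where none was called, that of smallest p. Some genes that this rule names are not reported here. Members and lists were chosen with earlier results of these data known.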

Additional observations from a re-analysis of the deposited data

Results flagged for a closer look

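The Ddit3 split differed between L5 PT and L2/3 IT nuclei, by the test of the difference itself, for Pcdh15 (log2 difference 1.40), Mgat4c (1.75) and Ubash3b (-3.15). All 3 rest on 8 sums from 2 libraries, and none passed without cluster 14, where edgeR called 0 and 404 genes had an unadjusted p under 0.05; DESeq2 called 0. Within L5 PT nuclei, the log2 fold change of Pcdh15 was -0.056 for male and 1.02 for female nuclei, and this difference between libraries was not tested. Ddit3 was also present in barcodes of under 100 UMIs, which the comparisons do not use, at 201 CPM (male library) and 124 CPM (female library).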

How the results depend on the processing

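The number of genes called in L5 PT nuclei (106) was 96 without normalization factors, 101 without the filter on low counts, 107 with at least 30 UMIs, 110 without nuclei with Gad1 or Gad2 UMIs, 84 without the 5% deepest nuclei and 112 with the newer quasi-likelihood method of edgeR, chosen after seeing the data. With other seeds it was 109, 148, 68, 116 and 84. It was 25 with sums of thinned counts (of 4727 tested), 2 with DESeq2 (77 at an unadjusted p under 0.05), 33 in the fit of 8 sums, 17 with the split from all UMIs, 33 with positive set at 2 or more UMIs and 45 in cluster 4. At 4000 UMIs edgeR called 0 (494 at an unadjusted p under 0.05), and 0 (25) without nuclei with 2 microglial UMIs, where 64 male and 7 female nuclei were left. Of alternatives chosen after seeing the data, depth above or below the median as a block gave 55, nuclei below the median microglial share 34 and leaving out cluster 14 22. The cause of these changes was not tested.

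The library pairs the sums, and without the library block edgeR called 0 genes in L5 PT (302 at an unadjusted p under 0.05, smallest adjusted p 0.669), 0 in L2/3 IT (677) and 0 for the difference (303). The 75 genes of L2/3 IT were 18 with thinned sums, 1 with DESeq2 and 1 without cluster 14. The 3 genes of the difference were 0 with thinned sums (276 at an unadjusted p under 0.05), 0 with DESeq2 (60) and 0 without cluster 14 (404). The mean share of positive nuclei (32.7%) was 49.1% at 4000 UMIs, 65.5% with all UMIs and 44.98% without nuclei with 2 microglial UMIs, and 28.5–36.9% with 1 library left out. With 1 library there is no test of genes, since no residual degrees of freedom remain; of 34 named called genes, 16 moved by at least the SE with the female library alone and 20 with the male, and 0 changed sign.

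Of the 34 named called genes, 10 had a value without nuclei with 2 microglial UMIs, 24 with thinned sums, 26 with depth as a block, 29 in cluster 4, 30 without cluster 14, in nuclei of lower microglial share and with positive set at 2 or more UMIs, and at least 32 under the others. These values kept the sign, except as follows; the cause was not tested. With the split at 4000 UMIs, values were 0.16 for Cntnap5a, 0.082 for Fras1, 0.16 for Gm28928, 2.24 for Npsr1 and 0.11 for St6galnac5. Fold changes with the split from all UMIs were 0.15 for Gm26883 and 0.42 for Npsr1. With seed 3, values were 0.44 for Gm26883 and 0.39 for Palld. With seed 5, it was 0.27 for Palld. With positive set at 2 or more UMIs, it was 0.069 for Palld. Fold changes with seed 4 were 0.22 for Brinp3, 0.11 for Cntnap5a, 0.38 for Fras1 and 0.34 for Gm28928. With seed 6, it was 0.083 for Kcnab1. Fold changes without nuclei with 2 microglial UMIs were 0.29 for Grin2b and 0.25 for Ldb2.

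Among 46 uncalled named genes, 36 changed sign under at least 1 alternative, with 108 such values of 1025. Of the 46, 5 were called elsewhere: Aldh1l2 with seed 2 and without the 5% deepest nuclei, Hsp90aa1 with seed 2, Syt1 and Miat with seed 3, and mt-Co3 with the split from all UMIs. With the split at 4000 UMIs, values were -0.24 for Bach2, 0.15 for Creb5, -0.019 for Ern1, 0.15 for Homer1, -0.024 for Map2, -0.069 for Mycbp2, -0.059 for Nmnat2, 0.57 for Oxsr1, -0.13 for Stat3 and -0.047 for mt-Cytb. Fold changes with the split from all UMIs were -0.10 for Bach2, -0.085 for Bbc3, 0.042 for Cacna2d3, -0.28 for Erbb4, 0.15 for Homer1, 0.038 for Mapk10, 0.036 for Mbp, -0.077 for Mycbp2, -0.010 for Sars, -0.091 for Sox9 and -0.55 for mt-Cytb. With seed 3, values were -0.029 for Bach2, -0.084 for Map2, 0.19 for Mbp, -0.093 for Mycbp2, -0.15 for Nmnat2, -0.051 for Ppp1cb and 0.16 for mt-Co3. Fold changes with seed 5 were -0.12 for Bach2, 0.056 for Creb5, 0.32 for Inpp5d, -0.0087 for Map2, 0.50 for Mbp, -0.0095 for Mycbp2 and -0.13 for mt-Cytb. With positive set at 2 or more UMIs, values were -0.46 for Bach2, -0.12 for Map2, -0.22 for Mycbp2, -0.081 for Nmnat2, -0.46 for Stat3 and 0.025 for mt-Co3. Fold changes with seed 4 were -0.31 for Bach2, -0.095 for Eif2ak3, 0.10 for Homer1, -0.086 for Map2, -0.0019 for Mycbp2, -0.24 for Nmnat2 and -0.053 for Sox11. In cluster 4 alone, values were -0.27 for Atf3, -0.026 for Gap43, -0.0082 for Malat1, -0.00055 for Nmnat2, -0.036 for Sox9, -0.045 for Sprr1a and -0.036 for Stat3. Fold changes in nuclei of lower microglial share were -0.10 for Atf3, -0.061 for Malat1, -0.097 for Mycbp2, 0.13 for Oxsr1 and -0.065 for Sprr1a. Without cluster 14, values were -0.27 for Atf3, -0.0018 for Gap43, -0.011 for Mycbp2, -0.028 for Sox9 and -0.055 for Sprr1a. Fold changes without the filter were -0.010 for Fam19a1, -0.024 for Malat1, -0.060 for Map2, -0.059 for Mycbp2, -0.038 for Nmnat2 and -0.017 for Rest. With seed 6, values were -0.095 for Bach2, -0.13 for Erbb4, -0.077 for Fam19a1, 0.61 for Inpp5d, -0.071 for Map2, 0.19 for Mbp, -0.0022 for Miat, -0.062 for Mycbp2, -0.12 for Nmnat2, -0.017 for Sarm1 and -0.30 for mt-Cytb. Fold changes without nuclei with Gad1 or Gad2 were -0.0057 for Map2, -0.0042 for Mycbp2 and -0.021 for Nmnat2. Without the 5% deepest nuclei, values were -0.034 for Mycbp2 and -0.0039 for Nmnat2. Fold changes with seed 2 were -0.15 for Bach2, -0.060 for Map2, 0.041 for Mbp and -0.099 for Mycbp2. Without nuclei with 2 microglial UMIs, values were 0.70 for Atf6, 0.25 for Cacna2d3, -0.14 for Gap43, -0.057 for Hsp90aa1, 0.34 for Htt, 0.079 for Kcnq5, 0.039 for Mapt, -0.23 for Mycbp2 and -0.072 for mt-Cytb. Fold changes with sums of thinned counts were -0.039 for Bach2, -0.071 for Eif2ak3, -0.039 for Fam19a1, -0.077 for Map2 and 0.0041 for Sox5. In the fit of 8 sums, values were -0.0049 for Map2 and -0.0010 for Mycbp2. With at least 30 UMIs over the 4 sums, it was -0.00076 for Map2.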
